A study of Mus musculus with 6 samples.

Results

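The mitochondrial respiratory chain was examined in KPC cells, a cultured mouse pancreatic ductal adenocarcinoma line, after silencing of Brca2. Genes were taken by symbol: the Nduf family, Sdha to Sdhd, the Uqcr family, Cyc1, Cycs, Cox4 to Cox8 and the Atp5 family. Of 10616 genes in the count table, 82 with such a symbol are described. They comprised 6 core and 28 accessory subunits of complex I, 6 complex I assembly factors with Ndufaf symbols and 4 subunits of complex II. The rest were 8 genes of complex III with Cyc1, 12 of complex IV, 17 of complex V and 1 symbol that marks a pseudogene, Ndufs5-ps. Complexes were assigned by symbol alone, so that Ndufa4 was counted with complex I and not with complex IV. Cycs, Ndufs5, Ndufa11 and Uqcrq were not analysed here, nor were the subunits encoded by mitochondrial DNA, since the table holds 0 genes of that genome.

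The respiratory chain passes electrons from NADH (complex I) and succinate (complex II) through ubiquinone and complex III to cytochrome c, and then through complex IV to oxygen. Complexes I, III and IV pump protons across the inner mitochondrial membrane, and complex V, the ATP synthase, uses the returning protons to make ATP. Most subunits are encoded in the nucleus, whereas a small set of central membrane subunits is encoded by mitochondrial DNA. Brca2 is a DNA repair protein that acts in homologous recombination at broken DNA ends.

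Both groups were the same KPC line carrying a lentiviral hairpin vector. The shBrca2 cells (3 libraries) carried a hairpin against Brca2 and the shControl cells (3 libraries) a non-targeting control. Cells were grown for 2 days, live cells negative for propidium iodide were sorted, and the 3′ ends of polyadenylated RNA were sequenced by a variation of MARS-seq. The comparison therefore describes a single cultured line with an incomplete knockdown, and the labels do not say whether the libraries of a group were separate cultures, so that p-values measure the spread between these libraries only. Replicate numbers below only name libraries.

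The libraries held 1519340 to 2452467 counts, and 10532 to 10593 genes had at least 1 count in each. For Brca2 the raw counts were 10, 11 and 14 under its hairpin and 33, 52 and 33 in shControl. Its log2 fold change was -1.61 (adjusted p = 0.029, DESeq2). This call was lost without shBrca2 replicate 2 (adjusted p = 0.152), without shBrca2 replicate 3 (0.233) or without shControl replicate 2 (0.371). Under TMM size factors, removal of the GC trend or a low-count filter DESeq2 gave Brca2 no adjusted p, so it was not called there. The first principal component held 41.1% of the variance and did not follow the groups, with shControl replicate 3 at one end. The second held 23.7% and did separate them, narrowly, with shBrca2 at 4.53 to 17.7 and shControl at -31.7 to 3.16. All 7 epithelial markers looked for were in the table, with a summed level of 16601 to 17373 normalized counts in shBrca2 and 17456 to 18583 in shControl, although Epcam itself was low (3.78 to 9.09 normalized counts). Of these markers Krt7 and Sox9 were called, both higher in shBrca2 (log2 fold changes 1.207 and 1.203), and the part of that difference in the results below was not tested. Of the other marker lists, 1 of 7 fibroblast genes (Col1a2), 1 of 5 immune genes (Cd68) and 0 of 3 endothelial genes were in the table, and Col1a2 and Cd68 stayed at or under 22.2 normalized counts in every library.

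Fitted differences between shBrca2 and shControl were small for most of the respiratory chain genes described, and none of these passed the thresholds. Calls required an adjusted p below 0.1 (Benjamini-Hochberg, over the whole table), a log2 fold change above 0.5 or below -0.5, and a base mean, the mean normalized count of all libraries, above 5. A normalized count is a count divided by the library's size factor, and fold changes are shBrca2 over shControl. Of the 82 genes, 0 were called, higher or lower, with DESeq2, and 0 with edgeR. In the whole table, 1.27% of tested genes were called, 0.770% higher and 0.50% lower. All 82 genes had a base mean over 5 and an adjusted p, so none was removed by the filter.

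The median log2 fold change of the 82 genes was 0.04, with the middle part of them between -0.09 and 0.16, and the median of all genes was -0.0018. Of the 82, 48 lay above 0 and 34 below. The median absolute log2 fold change was 0.12 among the 82 and 0.23 among all genes with a base mean over 5, and these counts were high (median base mean 572 against 57.0). In 41 of the 82 the 95% interval of the log2 fold change lay wholly between -0.5 and 0.5, and in 77 between -1 and 1. Over all genes with a base mean over 5 this held for 1348 and 6189 of 9906.

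At an unadjusted p under 0.05, 9 of the 82 genes passed, or 10.98%, against 8.33% of all genes. All 9 were higher in shBrca2, where the share of all genes was 4.45%, and 0 were lower, where it was 3.88%. The 3 shBrca2 libraries all lay above the 3 shControl libraries for 11 of the 82 (13.4%, against 10.2% of all genes) and all below for 3 (3.66%, against 10.5%). The genes wholly higher were Ndufb11, Ndufc2, Ndufb2, Sdha, Uqcrb, Uqcrc2, Atp5c1, Atp5g1, Atp5g3, Atp5h and Atp5mpl, and those wholly lower were Ndufaf8, Sdhb and Uqcrc1.

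**Figure D1:**
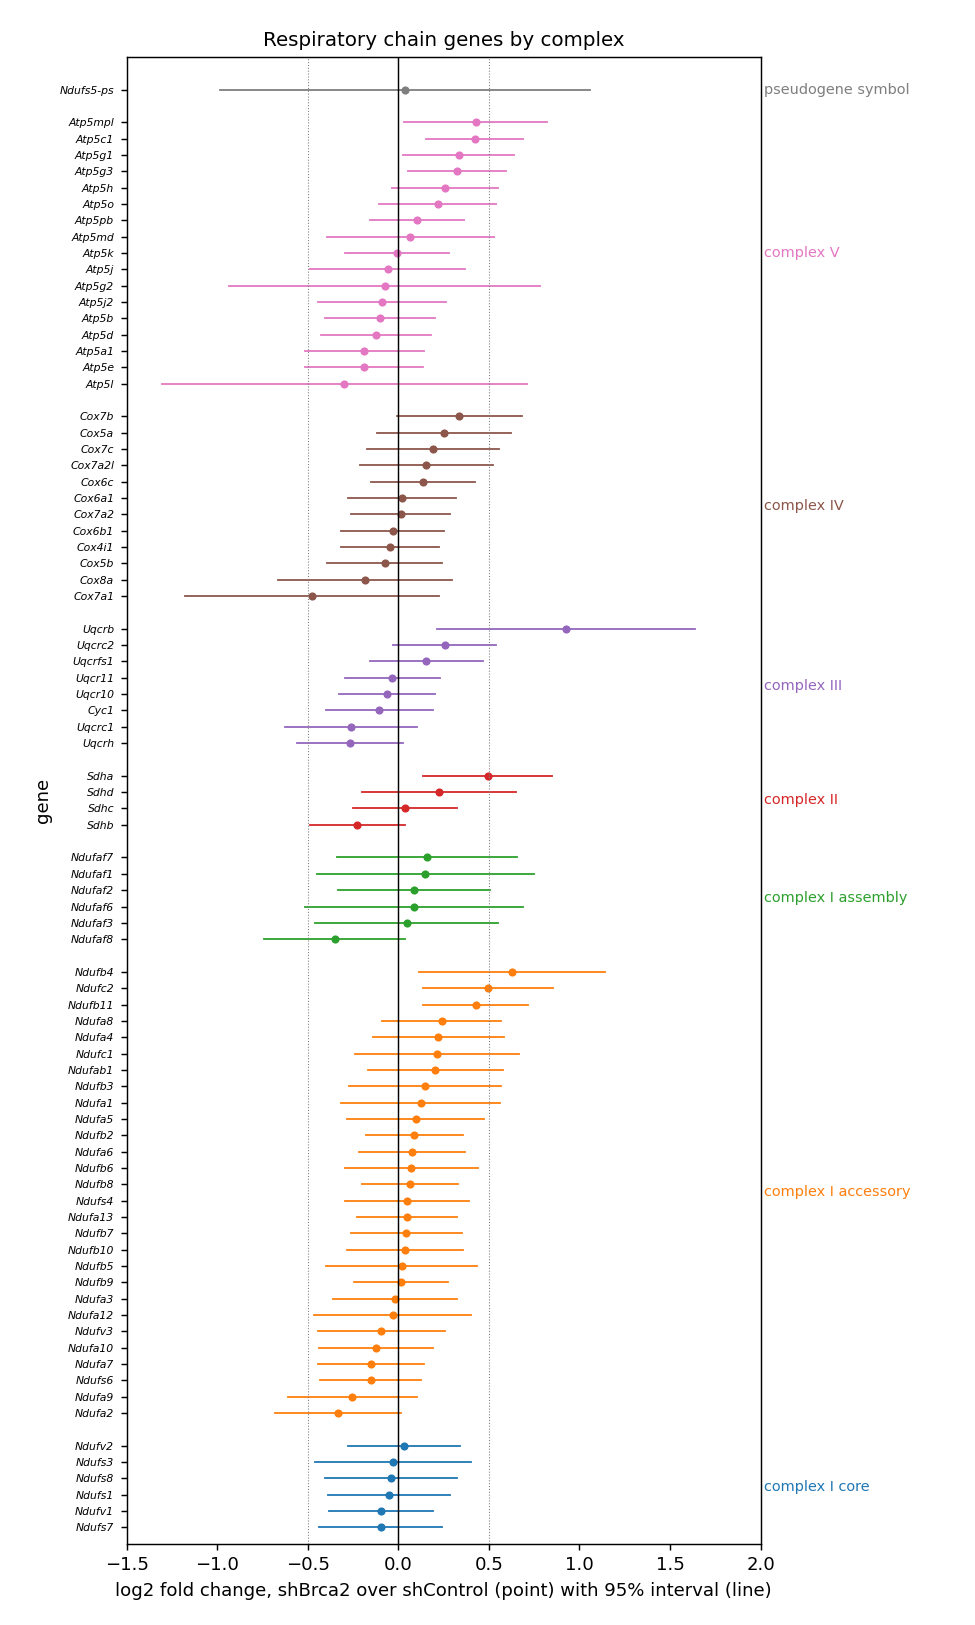
Log2 fold change of each of the 82 genes, shBrca2 over shControl (points), with its 95% interval (lines), grouped by complex and ordered within each, with dotted lines at -0.5 and 0.5. Most points lie close to 0, and the widest intervals belong to genes of low count such as Uqcrb, Atp5l, Atp5g2 and Ndufs5-ps.

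Promoter sequences are shown for a few members because short motifs of 3 factors known to act on nuclear genes of the chain could be read in them: NRF1, the ETS family (which includes the GA-binding protein) and YY1. RefSeq (GRCm38.p6) gave 74 promoters for 69 of the 82 genes, each from 250 bases before to 50 bases after the start. The letters searched, on both strands, were GCGCATGCG for NRF1, CCGGAAGT for ETS and AAGATGGCG for YY1. The 4 windows printed here run 5′ to 3′ on the gene's strand from 90 bases before the start to 30 after it, and capitals mark the matched letters.
Atp5k, chr5:108434370-108434489, minus strand, NRF1 on both strands: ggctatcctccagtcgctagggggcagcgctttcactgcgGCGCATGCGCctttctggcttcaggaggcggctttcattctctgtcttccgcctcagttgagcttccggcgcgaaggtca
Ndufaf8, chr11:120098844-120098963, plus strand, YY1: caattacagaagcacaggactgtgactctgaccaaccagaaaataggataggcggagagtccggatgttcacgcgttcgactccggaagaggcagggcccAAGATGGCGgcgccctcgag
Uqcr11, chr10:80406792-80406911, minus strand, ETS and then NRF1: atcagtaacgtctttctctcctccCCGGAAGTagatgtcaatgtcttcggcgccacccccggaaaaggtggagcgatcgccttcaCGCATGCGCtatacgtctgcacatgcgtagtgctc
Atp5h, chr11:115419890-115420009, minus strand, ETS: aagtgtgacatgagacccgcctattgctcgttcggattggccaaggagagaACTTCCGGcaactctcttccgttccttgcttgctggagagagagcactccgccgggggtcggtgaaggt

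The NRF1 letters stood in 7 of the 74 promoters (9.46%), against 1.75% of all 32851 promoters and 3.78% of those of genes in the table. The YY1 letters stood in 8 (10.8%), against 1.40% and 3.17%, and in 7 of these the match began 11 to 36 bases after the start. The ETS letters stood in 5 (6.76%), against 3.89% and 8.60%. In all, 19 genes had at least 1 of the 3. The members with NRF1 letters were Atp5g2, Atp5k, Atp5l, Cox6a1, Ndufa8, Uqcr11 and Uqcrc1, with log2 fold changes from -0.30 (Atp5l) to 0.24 (Ndufa8). Those with YY1 letters were Atp5j, Atp5j2, Ndufa9, Ndufaf8, Ndufc1, Ndufs4, Ndufs6 and Ndufs7, with log2 fold changes from -0.35 (Ndufaf8) to 0.21 (Ndufc1). None of these 15 genes was called, and a match is a description of the letters, not of binding.

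The core of complex I includes the subunits that carry the flavin, the iron-sulfur clusters and the ubiquinone site. The 6 core genes described are a part of it, all encoded in the nucleus, and lay near 0. Ndufs1, Ndufs8 and Ndufs7, which carry iron-sulfur clusters, had log2 fold changes of -0.05, -0.04 and -0.10. Ndufv1, which binds NADH and flavin, was at -0.10, its partner Ndufv2 at 0.03, and Ndufs3 at -0.03. For all 6 the 95% interval lay between -0.5 and 0.5, and the groups overlapped. Their median was -0.05, with 5 of 6 below 0.

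Accessory subunits of complex I surround and stabilize the core. Among the 28 genes counted as such by symbol, Ndufa4 (0.22) included, 20 lay above 0 and 8 below. Their median log2 fold change was 0.06, with 0 calls. Ndufb11, a membrane arm subunit, had normalized counts of 847, 717 and 752 in shBrca2 and of 603, 569 and 549 in shControl. Every shBrca2 library was higher, and the log2 fold change was 0.43 (SE 0.15, adjusted p = 0.188). When each library's trend with transcript GC content was removed, Ndufb11 passed the thresholds (0.56, adjusted p = 0.0308) and was then the only called gene of the 82.

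Ndufc2, another membrane arm subunit, had normalized counts of 477, 620 and 747 in shBrca2 and of 459, 395 and 457 in shControl. The groups were separate, but the lowest shBrca2 library lay close to the highest shControl library. Its log2 fold change was 0.50 (SE 0.18, adjusted p = 0.260), and without shBrca2 replicate 1 it was called (0.65, adjusted p = 0.0505). Ndufb4, also of the membrane arm, had the largest positive value of complex I, 0.63 (SE 0.26, adjusted p = 0.389), from 177, 135 and 300 normalized counts in shBrca2 against 122, 142 and 133 in shControl. Here the groups overlapped and shBrca2 replicate 3 alone lay far above the rest, and without it the value was 0.23 (adjusted p = 0.993).

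Of the most abundant accessory subunits, Ndufa2 lay lowest. Its normalized counts were 1098, 1541 and 1009 in shBrca2 and 1747, 1375 and 1475 in shControl. The groups overlapped, because shBrca2 replicate 2 lay above 2 of the shControl libraries, and the log2 fold change was -0.33 (SE 0.18, adjusted p = 0.613). Without that replicate it was called (-0.54, adjusted p = 0.0984). Ndufa13, the most abundant complex I transcript, was at 1747 ± 147 in shBrca2 and 1691 ± 163 in shControl (log2 fold change 0.05, SE 0.14), and Ndufa7 was at 1179 ± 146 and 1309 ± 89.3 (-0.15, SE 0.15).

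Assembly factors of complex I, which do not remain in the finished enzyme, had lower counts and wider intervals. The 6 had a median log2 fold change of 0.09, with 5 above 0. Ndufaf8 was the exception, with normalized counts of 227, 234 and 251 in shBrca2 and of 387, 265 and 260 in shControl. The shBrca2 libraries lay just below the lower shControl libraries, and shControl replicate 1 was far higher. The log2 fold change of -0.35 (SE 0.20, adjusted p = 0.656) became -0.14 without that library. The pseudogene symbol Ndufs5-ps had 7.07 to 30.2 normalized counts, with a log2 fold change of 0.04 and an interval from -0.99 to 1.06.

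Complex II, succinate dehydrogenase, belongs to both the chain and the tricarboxylic acid cycle, and its subunits differed in direction. Sdha, the flavoprotein that oxidizes succinate, had normalized counts of 560, 516 and 532 in shBrca2 and of 439, 417 and 286 in shControl. All shBrca2 libraries were higher, and shControl replicate 3 was well below its group. The log2 fold change was 0.49 (SE 0.18, adjusted p = 0.268), and 0.32 without that library.

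Sdhb, the iron-sulfur subunit, had normalized counts of 1053, 997 and 1007 in shBrca2 and of 1130, 1255 and 1189 in shControl. All 3 shBrca2 libraries were lower, with a log2 fold change of -0.23 (SE 0.13, adjusted p = 0.696). The membrane anchors Sdhc and Sdhd overlapped between groups, at 0.04 (SE 0.15) and 0.22 (SE 0.22). None of the 4 was called, and the median over them was 0.13.

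Complex III passes electrons from ubiquinol to cytochrome c. Its largest difference was in Uqcrb, a small subunit near the ubiquinone site, at chr13:66900576-66905350 (GRCm38.p6). Uqcrb had normalized counts of 40.9, 51.0 and 46.1 in shBrca2 and of 17.2, 26.8 and 28.7 in shControl. Every shBrca2 library was higher, but the raw counts behind them were only 17 to 54 per library. The log2 fold change was 0.93 (SE 0.36, 95% interval 0.21 to 1.64), the largest of the 82, with an adjusted p of 0.322 (DESeq2), so Uqcrb was not called.

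The pair of core proteins, Uqcrc1 and Uqcrc2, lay on opposite sides of 0. Uqcrc2 had normalized counts of 617, 590 and 598 in shBrca2 and of 509, 479 and 523 in shControl, a log2 fold change of 0.26 (SE 0.15, adjusted p = 0.664). Uqcrc1 had 203, 199 and 175 against 255, 219 and 218, a log2 fold change of -0.26 (SE 0.19, adjusted p = 0.786). For both genes the groups were separate, and neither was called.

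The remaining subunits of complex III were more abundant and closer to 0. Uqcrh, the hinge protein, was at 903 ± 62.4 in shBrca2 and 1084 ± 129 in shControl (log2 fold change -0.26, adjusted p = 0.657). Cyc1, the cytochrome that reduces cytochrome c, was at 1139 ± 149 and 1226 ± 93.2 (-0.11, adjusted p = 0.939). Uqcr10 and Uqcr11 were at -0.06 and -0.03, and Uqcrfs1, the Rieske iron-sulfur protein, at 0.15. The median over the 8 genes was -0.05.

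Complex IV is cytochrome c oxidase. Of its 12 genes 0 were called, as in every other complex, against 1.27% of all tested genes. An unadjusted p under 0.05 was reached by 0 of them, against 8.33% of all genes. Groups without overlap were found for 0, against 10.2% of all genes higher and 10.5% lower. The median log2 fold change of complex IV was 0.02. Cox6a1, its most abundant transcript, had normalized counts of 4495, 4388 and 5119 in shBrca2 and of 5474, 4105 and 4231 in shControl. The log2 fold change was 0.02 (SE 0.15, 95% interval -0.28 to 0.32). Cox4i1, which regulates the enzyme's response to ATP, was at 2061 ± 125 and 2126 ± 221 (-0.05, SE 0.14).

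Cox7b had the smallest p of complex IV. Its normalized counts were 846, 960 and 609 in shBrca2 and 632, 649 and 630 in shControl. The groups overlapped only through shBrca2 replicate 3, and the log2 fold change was 0.34 (SE 0.18, adjusted p = 0.595). Without that library Cox7b was called (0.51, adjusted p = 0.0896), and with the GC trend removed it was at 0.09. In Cox5a, by contrast, shBrca2 replicate 3 was the highest library at 2026. The log2 fold change of Cox5a was also positive, at 0.25 (SE 0.19, adjusted p = 0.822, DESeq2).

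Some subunits of complexes IV and V exist as alternative genes. Of the 3 genes Cox7a1, Cox7a2 and Cox7a2l, the counts of Cox7a2 made up 64.5% ± 4.81 with the Brca2 hairpin and 65.7% ± 3.08 with the control (SD, n = 3 each). Cox7a2l, which joins complexes III and IV into supercomplexes, held 33.4% ± 5.002 and 31.4% ± 3.72. Cox7a1, the form of heart and skeletal muscle, held 2.04% and 2.91%, from normalized counts of 28.7 to 34.0 against 56.6, 33.5 and 39.6 (log2 fold change -0.48, SE 0.36, adjusted p = 0.819). The groups overlapped for all 3 genes. The muscle, lung and testis forms Cox4i2, Cox6a2, Cox6b2 and Cox8c were not analysed here.

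Complex V, the ATP synthase, had 17 genes, 0 calls and a median log2 fold change of -0.01. It held 4 of the 9 genes with an unadjusted p under 0.05, and all 4 were higher in shBrca2, where the share of all genes was 4.45%. Groups did not overlap for 5 of the 17 (29.4%), again all higher, against 10.2% of all genes. In the catalytic F1 head, however, only 1 of 5 genes lay above 0.

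That gene was Atp5c1, the central shaft of F1, at chr2:10056030-10080510 (GRCm38.p6). Its normalized counts were 1402, 1410 and 1598 in shBrca2 and 1108, 1138 and 1049 in shControl. The groups did not overlap, and the log2 fold change was 0.42 (SE 0.14, 95% interval 0.15 to 0.69, adjusted p = 0.133, DESeq2). It was the smallest p of the 82, but both the adjusted p and the fold change fell short of their thresholds. The log2 fold change was 0.22 with the GC trend removed (adjusted p = 0.692, DESeq2). Atp5c1 overlaps Kin on the opposite strand.

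Both subunits that form the catalytic sites of the same head lay slightly below 0. Atp5b, the most abundant transcript of the 82, had normalized counts of 4969, 3983 and 4836 in shBrca2 and of 5791, 4636 and 4377 in shControl (log2 fold change -0.10, SE 0.15, adjusted p = 0.943). Atp5a1 had 2416, 2144 and 2681 against 3402, 2507 and 2339 (-0.19, SE 0.17, adjusted p = 0.871). For both genes the groups overlapped, and shControl replicate 1 was the highest library.

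The c subunit forms the rotating ring of the membrane part and is encoded by Atp5g1, Atp5g2 and Atp5g3, whose mature proteins are identical. Atp5g3 had normalized counts of 3471, 3761 and 4311 in shBrca2 and of 3288, 2959 and 2977 in shControl, a log2 fold change of 0.32 (SE 0.14, adjusted p = 0.415). Atp5g1 had 477, 501 and 464 against 408, 351 and 386, a log2 fold change of 0.33 (SE 0.16, adjusted p = 0.501). In both, every shBrca2 library lay above every shControl library, and neither was called.

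Atp5g2, by contrast, had 20.4, 28.4 and 23.5 against 35.4, 15.1 and 26.7 normalized counts (-0.08, SE 0.44). The mix of the 3 genes differed by less than its spread: Atp5g3 held 88.3% ± 1.32 of their counts in shBrca2 and 88.3% ± 0.598 in shControl, Atp5g1 11.1% and 10.96%, and Atp5g2 0.555% and 0.730%. How reads that match several of these genes were counted is not given in the sources used here.

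Of the small subunits, Atp5mpl had normalized counts of 206, 200 and 203 in shBrca2 and of 129, 142 and 182 in shControl (log2 fold change 0.43, SE 0.20, adjusted p = 0.520). Atp5h, in the stalk that holds the head still, had 809, 832 and 687 against 620, 649 and 676 (0.26, SE 0.15, adjusted p = 0.671). The groups did not overlap for either gene, and in Atp5h the lowest shBrca2 library lay next to the highest shControl library.

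**Figure D2:**
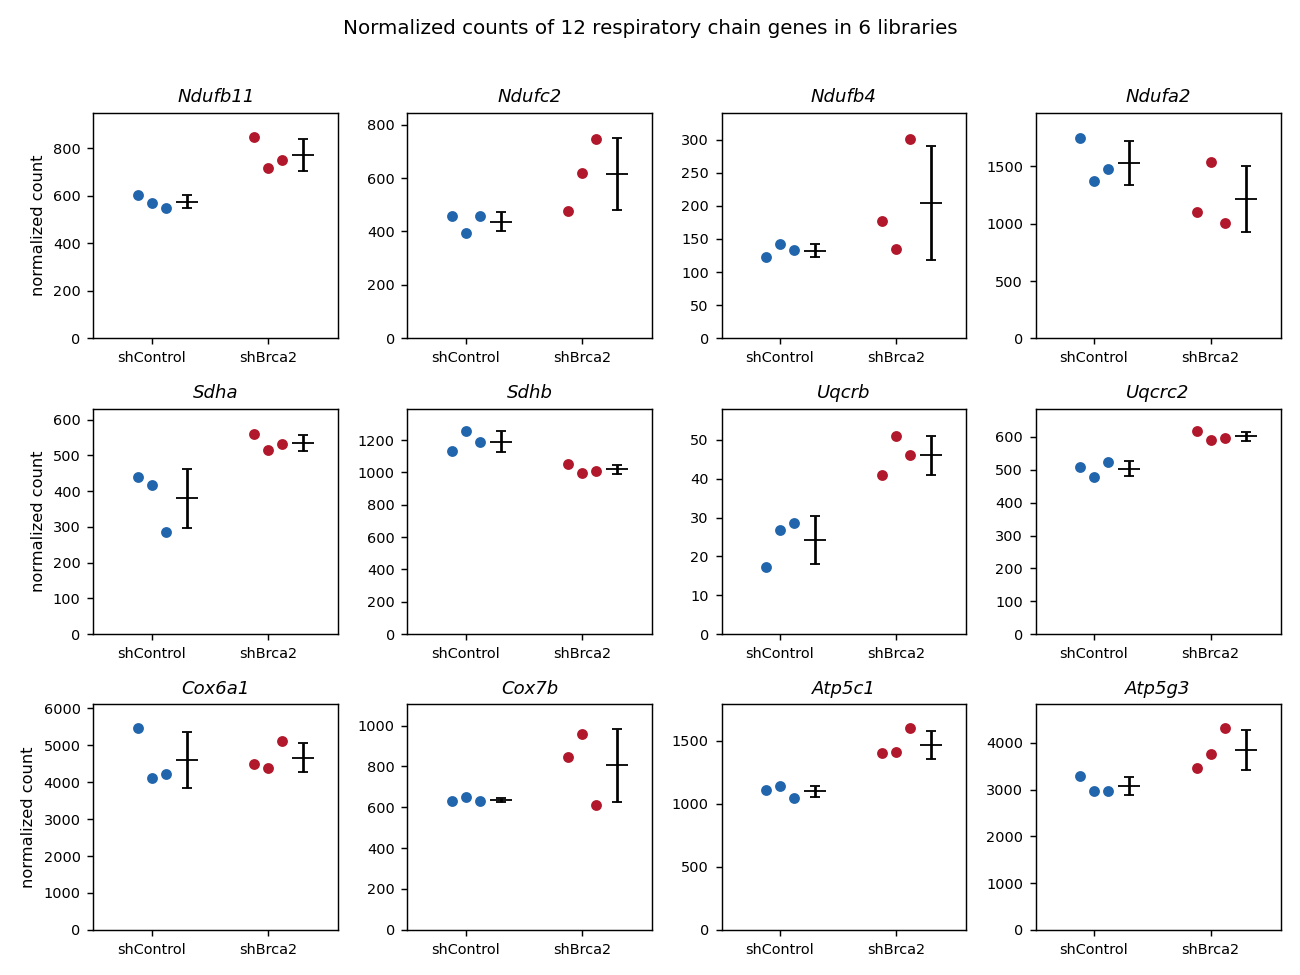
Normalized counts (y axes, from 0) of 12 respiratory chain genes in the 3 shControl (blue) and 3 shBrca2 (red) libraries, with the mean and SD in black beside each group. Atp5c1 lies higher in all shBrca2 libraries (1402 to 1598 against 1049 to 1138), while Cox6a1, Ndufa2 and Cox7b overlap between the groups.

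The summed output of the genes described was also compared, as the percent of each library's counts. The 82 genes took 3.37%, 3.305% and 3.39% of the shBrca2 libraries and 3.48%, 3.17% and 3.23% of the shControl libraries. The shBrca2 values lay inside the shControl range, and the means of 3.35% ± 0.044 and 3.29% ± 0.168 (SD, n = 3 each) differed by 0.060 percentage points. That overlap rested on shControl replicate 1: without it the difference was 0.155 percentage points and all shBrca2 shares lay above the other shControl shares, while without shControl replicate 2 the difference was -0.0035.

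By complex, the subunits of complex I described took 1.05% ± 0.027 in shBrca2 and 1.04% ± 0.025 in shControl. Complex II took 0.149% ± 0.0039 and 0.145% ± 0.0067, and complex III 0.304% ± 0.014 and 0.313% ± 0.013. Complex IV took 0.713% ± 0.036 and 0.687% ± 0.083, and complex V 1.101% ± 0.023 and 1.07% ± 0.054. All 5 complexes overlapped between the groups, and the widest range within a group was that of complex IV in shControl, where replicate 1 stood at 0.781%. The summed share of the 3 c subunit genes did not overlap, at 0.192%, 0.207% and 0.234% in shBrca2 and 0.176%, 0.162% and 0.168% in shControl. That sum was mostly Atp5g3 (88.3% in each group), described above, and Atp5g2 on its own overlapped.

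**Figure D3:**
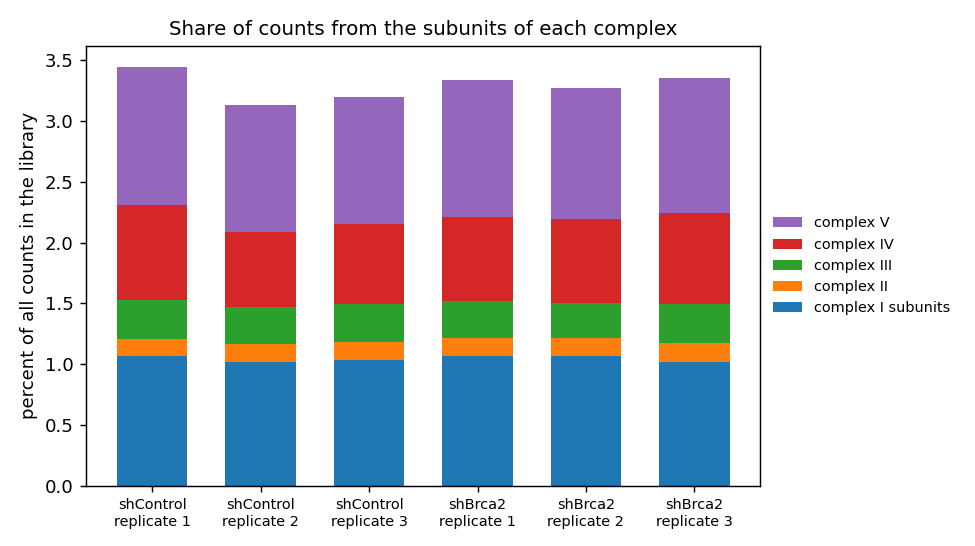
Percent of each library's counts (y axis) taken by the subunits of complexes I to V, stacked, for the 3 shControl and 3 shBrca2 libraries. Complexes I and V each take about the same share in every library, and the tallest bar is shControl replicate 1, where complex IV is at 0.781%.

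The 82 genes also varied between libraries of the same group. shControl replicate 1 held the highest value for 32 genes, while shControl replicate 2 held the lowest for 22 and shBrca2 replicate 3 for 21. Deviations from each gene's mean were spread most widely in shBrca2 replicate 3 (interquartile range 0.39 on the log2 scale) and shControl replicate 1 (0.35), against 0.18 to 0.22 in the other 4. Ndufb4 and Cox5a had their highest value and Cox7b its lowest in shBrca2 replicate 3, and Ndufaf8, Atp5a1 and Cox8a had their highest in shControl replicate 1. Cox8a, an essential small subunit of complex IV, had 888 normalized counts there and 409 to 550 in the other 5 libraries. What sets these libraries apart was not tested.

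By library, the median deviation over the 82 genes overlapped between the groups, as it did for complexes III and IV and each class of complex I. For complex V it did not, at 0.11, 0.13 and 0.024 on the log2 scale in shBrca2 and -0.0098, -0.13 and -0.080 in shControl. For complex II it lay at 0.11, 0.049 and 0.048 against 0.0013, 0.0028 and 0.031, again without overlap but with a narrow gap. The median log2 fold change of complex V was nevertheless -0.01, with 8 of its 17 genes above 0 and 9 below. Of all single genes, 10.2% were without overlap and higher, and 10.5% lower. These medians by library were not tested.

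Replicate spread was otherwise alike in the groups, with a median coefficient of variation of 11.1% in shBrca2 and 11.5% in shControl. It was smallest for Cox6c in shBrca2 (0.762%) and for Cox7b in shControl (1.67%), and largest for Ndufb4 in shBrca2 (42.0%) and for Atp5l in shControl (71.9%).

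**Figure D4:**
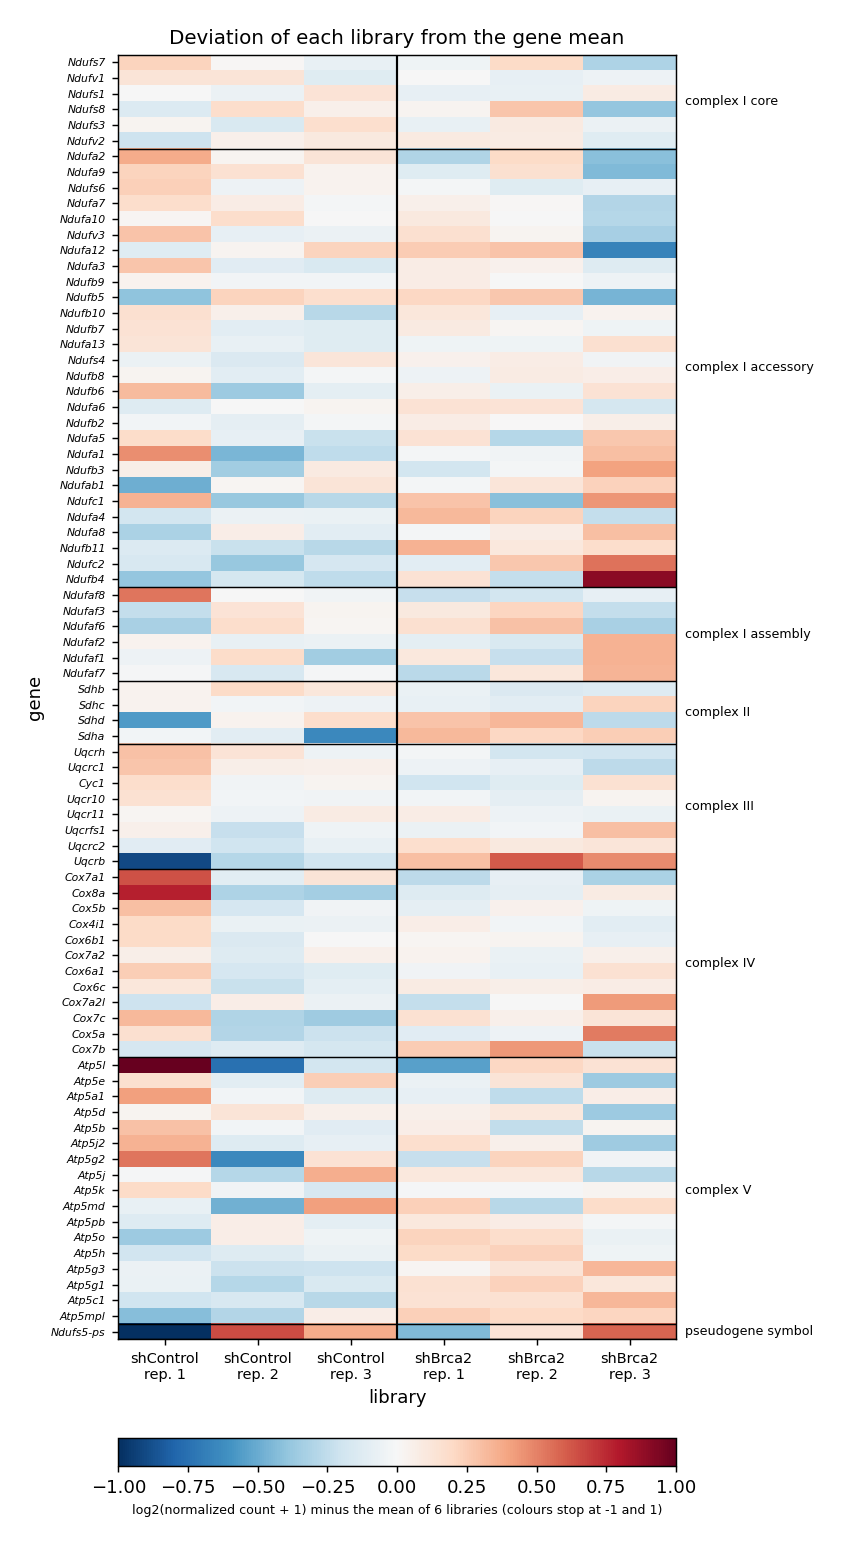
Deviation of each library from the gene's mean over 6 libraries, as log2(normalized count + 1), for the 82 genes (rows, by complex) in the shControl and shBrca2 libraries (columns); red is above and blue below the mean, and colours stop at -1 and 1. Atp5c1 and Atp5g1 are below their means in all shControl and above them in all shBrca2 libraries, and most of the strongest colours fall in shControl replicate 1 and shBrca2 replicate 3.

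Genes that work around the chain were described in the same way. Of 41 assembly factors and partners outside the symbols above 0 were called, against 1.27% of all tested genes. Cox20, a chaperone for complex IV, had the smallest p of this list (log2 fold change 0.52, adjusted p = 0.471, DESeq2). Of 16 genes of the tricarboxylic acid cycle and pyruvate dehydrogenase 0 were called, with a median of 0.11. Pdhb, the beta subunit of pyruvate dehydrogenase, had normalized counts of 223, 212 and 257 in shBrca2 and of 140, 153 and 169 in shControl. The groups did not overlap, and the log2 fold change was 0.58 (SE 0.19, adjusted p = 0.155). Pdha1, its partner in the same enzyme, was at 0.42 (adjusted p = 0.450).

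Of 19 genes through which other electrons enter the chain 0 were called, against 1.27% of all tested genes. Etfa, a subunit of the electron transfer flavoprotein, was at 0.49 (adjusted p = 0.368, DESeq2). Of 15 nuclear regulators of mitochondrial genes 0 were called, and Hif1a had the smallest p (0.48, adjusted p = 0.706). Nrf1, whose letters were searched above, was at -0.32 (adjusted p = 0.808).

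The 13 carriers and channels of the mitochondrial membranes had 0 calls, against 1.27% of all tested genes, but the highest median of these lists, 0.20. Of the 13, 10 lay above 0 and 3 below, the lowest at -0.24. Groups did not overlap for 4 of the 13, all higher in shBrca2, against 10.2% of all genes. Slc25a5, an ADP/ATP carrier, had normalized counts of 966, 931 and 905 in shBrca2 and of 737, 669 and 627 in shControl. The groups did not overlap, and the log2 fold change of 0.46 (SE 0.14, adjusted p = 0.0931) fell short of the fold minimum. Slc25a4, the other abundant ADP/ATP carrier, was at 0.35 (adjusted p = 0.232) and Vdac2, an outer membrane channel, at 0.30 (adjusted p = 0.559). The carriers took 0.566% ± 0.026 of the counts in shBrca2 and 0.484% ± 0.016 in shControl, and these shares did not overlap.

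Ribosomal proteins of the mitochondrion, which translate the subunits encoded by mitochondrial DNA, had 1 call among 74, against 1.27% of all tested genes. The called gene was Mrps6, with normalized counts of 919, 1003 and 937 in shBrca2 and of 587, 678 and 741 in shControl. All shBrca2 libraries were higher, and Mrps6 rose by 0.51 on the log2 scale (SE 0.15, adjusted p = 0.0598). The call was lost with edgeR (adjusted p = 0.115), with an adjusted p under 0.05 and on leaving out any 1 library other than shControl replicate 3. The list's median log2 fold change was -0.03.

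The 80 cytosolic ribosomal proteins, looked at as another set of abundant transcripts, also had 1 call, against 1.27% of all tested genes. Rpl39 had normalized counts of 163, 179 and 125 in shBrca2 and of 78.8, 70.4 and 86.0 in shControl, and rose by 0.99 on the log2 scale (SE 0.23, adjusted p = 0.00646). That call was lost without shControl replicate 2 (adjusted p = 0.152). The median of the list was 0.04.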

How the data were processed

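RNA was measured in 6 libraries of cultured KPC cells, 3 shBrca2 and 3 shControl, grouped by the source name in the labels. The authors deposited raw read counts per gene symbol, neither normalized nor pooled. Per the labels the processing used bcl2fastq, cutadapt, STAR 2.4.2a, HTSeq and DESeq2 with mm10; the use of strand, molecular identifiers and multiply mapped reads is not given in the sources used here. Depth limits the precision of low genes, and the counts of 3′ ends were not divided by length.

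All genes were fitted with DESeq2 1.42.0 in R 4.3.3 (likelihood ratio test, median-of-ratios size factors, unshrunken fold changes), with calls at the study's thresholds: adjusted p below 0.1, base mean above 5 and a log2 fold change beyond 0.5 in either direction. DESeq2 gave 619 genes no adjusted p. Intervals are 1.96 SE either side and, like all errors here, describe these libraries. The fitting functions were also run on counts simulated with known fold changes, which does not test the fits reported here.

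Members and lists were chosen with earlier results of these data known. Additionally, 1 further gene with a matching symbol, 1 gene of another list and the results that need them are not reported here; they are left out of every count, median and share given for members and lists, which therefore describe the genes reported: a count of 0 calls or of 0 lower genes does not extend to the whole chain. Counts over all genes keep them. Named were called members, the 3 most abundant and the 3 with the smallest p in each complex, the assembly factor with the smallest p, alternative subunits and the leading gene of each other list; Ndufb2, Uqcrc1, Uqcrfs1, Atp5h, Atp5mpl, Cox8a, Cox6c, Atp5l, the core subunits of complex I, the genes that hold motif letters and the further genes of the other lists were named after their values were seen. Alternatives were edgeR 4.0.16, the Wald test, other size factors, filters and thresholds, removal of GC or length trends (GENCODE vM39 transcripts, matched for 80 of the 82 genes), and leaving out each library. Of the 82 genes, 54 overlap a gene on the opposite strand and 15 one on the same strand, and for these, as for genes with near-identical copies, counts are uncertain. Places are from RefSeq on GRCm38.p6, the assembly that mm10 denotes.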

Additional observations from a re-analysis of the deposited data

How the results depend on the processing

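With every library kept, the count of called genes among the 82 stayed at 0 under each alternative but removal of the GC trend. That alternative gave 1, Ndufb11 (log2 fold change 0.56, adjusted p = 0.0308). The stricter limits on adjusted p and base mean used the same fit and could not have raised a count of 0. Leaving out 1 library gave 0 to 1 called members (Ndufc2, Ndufa2 or Cox7b, 1 without each of the shBrca2 replicates), and 47 to 140 called genes in the whole table (127 with all libraries; 81 without shBrca2 replicate 1, 47 without shBrca2 replicate 3 and 55 without shControl replicate 2). Brca2 ranged from -1.70 to -1.46 on leaving out a library. Of the other mitochondrial and ribosomal lists 2 genes were called, against 1 at an adjusted p under 0.05, 1 with edgeR, and 0 to 3 on leaving out a library (0 without shControl replicate 2, and 1 without any of the shBrca2 replicates). With the GC trend removed the median log2 fold changes became -0.017 for the 82 genes, -0.020 for the accessory subunits and 0.047 for complex II. Leaving out a library moved the accessory median between 0.018 and 0.11, that of complex II between 0.045 and 0.17 and that of complex V between -0.094 and 0.096. Small values changed sign: with the GC trend removed Cox4i1 was at 0.073, Cox7a2 at -0.19 and Cyc1 at 0.0015, and with the length trend removed Cox7a2 was at -0.026. Without 1 library the ranges that crossed 0 were -0.18 to 0.027 for Atp5b, -0.36 to 0.22 for Atp5g2, -0.093 to 0.042 for Cox4i1, -0.056 to 0.16 for Cox6a1, -0.047 to 0.048 for Cox7a2, -0.051 to 0.29 for Cox7a2l, -0.023 to 0.13 for Ndufa13 and -0.075 to 0.099 for Sdhc. The cause of these changes was not tested. The difference in summed share moved by less than the spread between replicates under each alternative, between -0.0035 percentage points without shControl replicate 2 and 0.155 without shControl replicate 1, where the groups no longer overlapped. For single genes, 594 values kept their direction and side of the threshold, 18 changed sign, 6 passed the threshold only under the alternative and 8 lost it. The settings that changed only a threshold or the test kept the main fold changes. Their values, counted here too, could not change sign. No paired analysis was possible because the serial numbers in the titles differ for all 6 libraries and tie none of one group to one of the other.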
